A study of Mus musculus with 5 samples.

Results

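The genes described here are those whose symbols name a protein of the cytosolic ribosome. A row of the RefSeq gene table was taken when its symbol began with Rpl or Rps followed by a digit, or was Rplp0, Rplp1, Rplp2 or Rpsa, and ribosomal S6 kinases and named pseudogenes were left out. This gave 85 of 18307 RefSeq genes, 51 with a large subunit name (Rpl) and 34 with a small subunit name (Rps). Of these, 77 encode standard ribosomal proteins, 7 are paralog copies (Rpl3l, Rpl22l1, Rpl36al, Rpl39l, Rpl7l1, Rps27l and Rps4y2), and Rps19bp1 encodes a protein that binds Rps19 and is not itself a ribosomal protein. The genes lay on 19 chromosomes, 14 of them on chromosome 7.

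RNA was measured in heart ventricles of CD-1 mouse embryos at E10.5. The dams had daily injections, the first at E6.5 and the last at E9.5, of 20 mg/kg caffeine (3 libraries) or of the vehicle, 0.9% NaCl (2 libraries). CD-1 is an outbred strain, no genetic change was made in either group, and each library is a pool of ventricles from embryos that shared dams, counted as 1 sample. The p-values below therefore set the difference between the groups against the spread between these pools. In such bulk RNA fewer cells of a type and less RNA per cell cannot be told apart.

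The ribosome is built from ribosomal RNA and a fixed set of proteins, most of them present once in each particle. Their mRNAs are among the most abundant in growing cells, are short, and begin with a run of pyrimidines, the terminal oligopyrimidine (TOP) tract, through which the mTOR pathway controls how much they are translated. In mammals most of these proteins come from 1 intron-containing gene that has left many intronless copies, processed pseudogenes, elsewhere in the genome.

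Sequences of 2 kinds are given before the values, and no link between the first kind and the values was tested. The first is the start of the gene, shown for 6 genes with small p-values in the caffeine comparison and for 2 genes whose log2 fold changes had the other sign. Each line holds 30 bases before and 30 bases from the annotated start site in RefSeq on GRCm38.p6, written 5′ to 3′ on the gene's own strand. Capitals mark the longest run of C and T between 20 bases before and 30 bases after the start. A run that crosses these limits, as in Rps25, is marked and counted only inside them.
Rps6 (chr4:86857338-86857397, minus strand): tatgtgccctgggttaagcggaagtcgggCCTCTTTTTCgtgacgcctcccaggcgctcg
Rps25 (chr9:44407684-44407743, plus strand): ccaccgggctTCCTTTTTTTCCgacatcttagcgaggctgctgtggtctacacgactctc
Rpl7a (chr2:26910777-26910836, plus strand): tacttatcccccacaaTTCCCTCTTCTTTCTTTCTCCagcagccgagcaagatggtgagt
Rpl27a (chr7:109519165-109519224, plus strand): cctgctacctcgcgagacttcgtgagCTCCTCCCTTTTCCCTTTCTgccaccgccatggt
Rpl14 (chr9:120571487-120571546, plus strand): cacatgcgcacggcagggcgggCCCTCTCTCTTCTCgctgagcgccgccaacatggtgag
Rpl26 (chr11:68901536-68901595, plus strand): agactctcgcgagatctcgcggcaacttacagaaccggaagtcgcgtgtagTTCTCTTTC
Rps10 (chr17:27635215-27635274, minus strand): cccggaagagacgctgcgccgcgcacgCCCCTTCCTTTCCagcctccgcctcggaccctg
Rps21 (chr2:180257349-180257408, plus strand): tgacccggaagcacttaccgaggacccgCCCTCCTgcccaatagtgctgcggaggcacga

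The longest run had 21 bases in Rpl7a and 7 bases in Rps21, and in Rpl26 it began at base 22, counted from 1 at the start. A RefSeq promoter was found for 64 of the 85 genes, and the promoter nearest the gene's deposited start was taken. Of the 64, 31 (48.4%) had a run of at least 8 pyrimidines between 20 bases before and 30 bases after the start. The share was 19.0% among all 32851 promoters listed, which can hold several per gene, so the sets compared are unlike. The letters CCGGAAG, on either strand and within 300 bases, were in 40.6% of the 64 and in 8.86% of all. AAGATGGC was in 9.38% and 2.75%, and TATAAA in 10.9% and 13.6%. These are matches of letters, and the searches can overlap one another.

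The second kind is the coding sequence that a gene shares with its processed pseudogenes, since a short read from it fits both. The lines below give 60 bases of coding sequence from GENCODE on GRCm38, 5′ to 3′, and a capital marks a base at which gene and copy differ.
Rps6 and Rps6-ps4: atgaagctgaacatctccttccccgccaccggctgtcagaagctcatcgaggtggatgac
Rpl3: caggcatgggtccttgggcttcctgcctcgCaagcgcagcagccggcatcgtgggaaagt
Rpl3-ps1: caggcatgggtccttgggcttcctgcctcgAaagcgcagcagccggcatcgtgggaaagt
Rps27a: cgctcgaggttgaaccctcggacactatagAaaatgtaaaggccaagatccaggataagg
Gm8430: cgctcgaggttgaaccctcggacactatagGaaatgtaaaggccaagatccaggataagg
Rpl23a: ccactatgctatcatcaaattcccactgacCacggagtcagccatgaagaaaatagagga
Gm10132: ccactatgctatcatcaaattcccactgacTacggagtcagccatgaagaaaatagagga

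Rps6-ps4, on chromosome 2 (chr2:75191073-75191822, minus strand), was identical to the Rps6 coding sequence over all 750 bases. Rpl3-ps1 on the X chromosome differed from Rpl3 at 2 of 1209 coding bases. Gm8430 on chromosome 6 differed from Rps27a at 1 of 471, and Gm10132 on chromosome 14 from Rpl23a at 1 of 468. Whether a read is given to the gene or to the copy is a choice of the counting, and the counts on the Ensembl annotation described further on show how large that choice is.

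Levels were compared between genes as CPM (counts scaled to a common library total) per 1000 bases of the annotated transcript (CPM per kb), averaged over the 5 libraries. The 77 standard genes had a median level of 402 CPM per kb, with quartiles of 281 and 689. The 31 small subunit genes had a median level of 487 and the 46 large subunit genes one of 395 CPM per kb, and 51 of the 77 lay within 2 times of the common median. Rpl41, which encodes the smallest protein of the ribosome, had the highest level at 1669 CPM per kb, ahead of the stalk proteins Rplp1 and Rplp0.

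At the other end 5 standard genes lay under 0.1 times the median, Rpl29 at 2.34, Rpl21 at 2.38, Rps15a at 24.5, Rpl34 at 35.9 and Rpl30 at 36.0 CPM per kb. Except for Rpl29 they were named after their values were seen. Rpl29 had 23 copies and Rpl21 had 37 copies elsewhere in the Ensembl table. The low levels are those of the RefSeq rows. In vehicle replicate 1 the RefSeq rows of Rpl29, Rpl34, Rpl30 and Rps15a had 36.5, 588, 598 and 3414 counts. Summed with their copies on Ensembl, these genes had 3438, 10950, 9585 and 15830 counts there. Rpl21 stayed low, with 137 RefSeq counts and an Ensembl sum of 293. The 5 standard genes with no copy had a median RefSeq count of 17530 per library, the 55 with 1 to 9 copies one of 7243, and the 17 with at least 10 copies one of 4195. The rank correlation of count and number of copies over the 77 genes was -0.29, a description over genes that share the same libraries. The annotated Rps15a transcript is 5134 bases long, and where the RNA in these cells ends earlier than such a model, a level per length is too low. The 2 genes lowest in level per length were paralogs, Rpl39l, with at most 0.0911 CPM in any library, and Rpl3l, the muscle form of Rpl3, with 0.273 to 0.545 CPM.

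The sum of all 85 genes took 3.53% of RefSeq counts in vehicle replicate 1 and 2.91% in vehicle replicate 2. In caffeine replicates 1, 2 and 3 it took 2.97%, 2.95% and 2.87%. By this share of raw totals vehicle replicate 1 stood apart, and vehicle replicate 2 lay inside the range of the caffeine libraries. The place of vehicle replicate 2 depended on the scaling. As CPM on TMM-scaled totals these genes summed to 36390 and 29650 under vehicle against 28970, 29170 and 28330 under caffeine. On that scale vehicle replicate 2 lay above all 3 caffeine libraries, and vehicle replicate 1 was again the highest. Of the 84 genes with enough counts to be tested, 78 were highest in vehicle replicate 1. The lowest library was caffeine replicate 3 for 44 genes, vehicle replicate 2 for 19, caffeine replicate 1 for 17 and caffeine replicate 2 for 4.

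**Figure D1:**
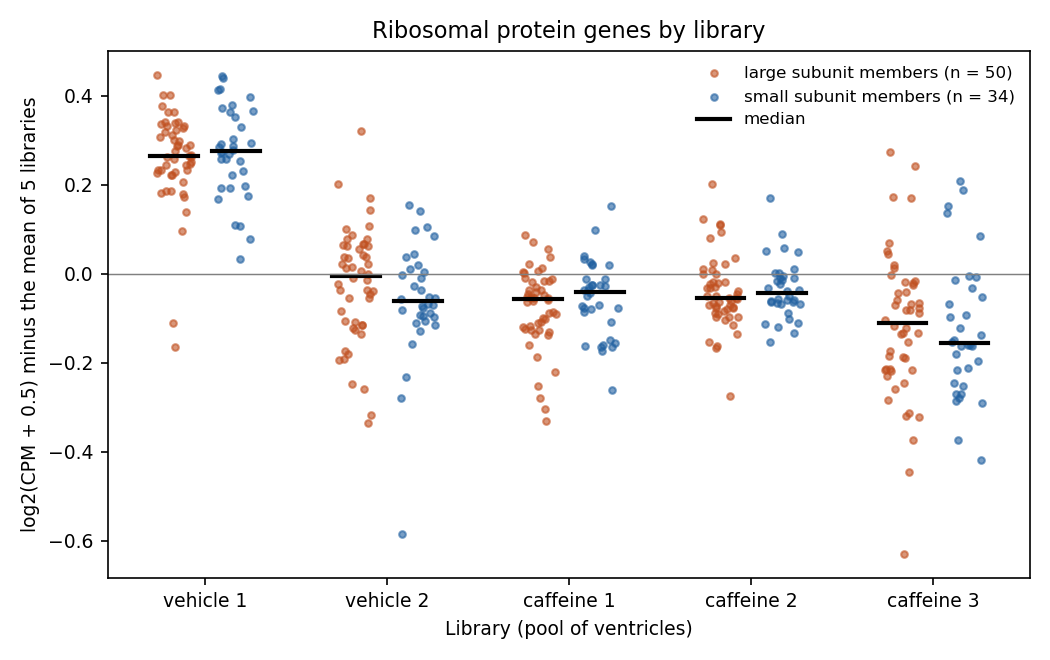
Each point is 1 gene in 1 library, drawn as log2(CPM + 0.5) minus that gene's mean over the 5 libraries, with large and small subunit genes side by side and black lines at the medians. Vehicle replicate 1 stands above the other 4 libraries in both subunits. For large subunit genes the median of vehicle replicate 2 (-0.004) is above those of the caffeine libraries (-0.057, -0.054 and -0.109). For small subunit genes it (-0.061) lies among them (-0.04, -0.044 and -0.156).

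Set against each gene's own mean over the 5 libraries on the log2(CPM + 0.5) scale, vehicle replicate 1 had a median deviation of 0.27 and vehicle replicate 2 one of -0.04. It was -0.05, -0.05 and -0.13 in caffeine replicates 1, 2 and 3. The 2 vehicle libraries differed by a median of 0.31 on that log2 scale, with vehicle replicate 1 higher for 83 of 84 genes. This gap was larger than the size of the gene's own log2 fold change between the groups for 57 of 84 genes. The 3 caffeine libraries spanned a median of 0.17 from the lowest to the highest.

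In the comparison of caffeine with vehicle, most ribosomal protein genes had a small negative log2 fold change and none passed the test. The log2 fold change was below 0 for 76 of 84 genes, against 47.0% of the 13829 genes tested, and its median was -0.20 against 0.01 for all genes. The edgeR quasi-likelihood test with Benjamini-Hochberg adjustment over all genes called 0 of 84 at an adjusted p of 0.05. It called 0.00723% of all genes, a single one, Peg3as, named here after its value was seen. DESeq2 and limma-voom also called 0 of the 84. At an unadjusted p under 0.05 edgeR gave 22 genes lower in caffeine and 0 higher, where 2.07% of all genes were lower and 3.13% higher by that rule. DESeq2 gave 23 lower by it and limma-voom 23, but library totals without TMM gave 9. In these alternative fits the share of all genes by that rule was not taken. With library totals 33.6% of all genes had a log2 fold change below 0.

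These values depended on single libraries. Without vehicle replicate 1 the median log2 fold change of the 84 genes was -0.06, and 50 (59.5%) were below 0, where 48.1% of all genes were. Without vehicle replicate 2 the median was -0.37, and 81 (96.4%) were below 0, where 49.4% of all genes were. Leaving out a caffeine library gave medians from -0.22 to -0.20. The number lower at an unadjusted p under 0.05 in edgeR was 23, 16 and 7 without caffeine replicates 1, 2 and 3. The share of all genes by that rule was not taken in these 3 fits.

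The order of the single libraries was read from CPM on TMM-scaled totals. Both vehicle libraries lay above all 3 caffeine libraries for 38 of 84 genes (45.2%), where 9.27% of all genes tested were so ordered. With library totals without TMM it was 25 genes (all genes 5.18%), and with upper-quartile scaling 30 (all genes 8.28%). The reverse order held for 1 gene, Rpl3l, against 11.2% of all genes, and 46 of the 85 genes overlapped. Vehicle replicate 2 taken alone lay above all 3 caffeine libraries for 38 genes as well, against 25% of all genes tested.

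Large and small subunit genes differed little in their medians over all 5 libraries. The median log2 fold change was -0.21 over 50 genes with a large subunit name and -0.18 over 34 with a small subunit name. It was below 0 for 46 and 30 of them, and an unadjusted p under 0.05, with caffeine lower, was reached by 14 and 8 (all genes 2.07%). Both vehicle libraries were above all caffeine libraries for 26 large (52%) and 12 small subunit genes (35.3%), against 9.27% of all genes. Without vehicle replicate 1 the median was -0.095 over the large subunit genes and close to 0 over the small ones. The ratio of small to large subunit counts was 0.686 and 0.685 in the vehicle pools against 0.679, 0.680 and 0.663 in the caffeine pools, so that the lowest ratio fell in caffeine replicate 3. Among the standard genes alone, without paralogs and Rps19bp1, the median log2 fold change was -0.214 over 46 large and -0.185 over 31 small subunit genes. The difference between the subunits was not tested.

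**Figure D2:**
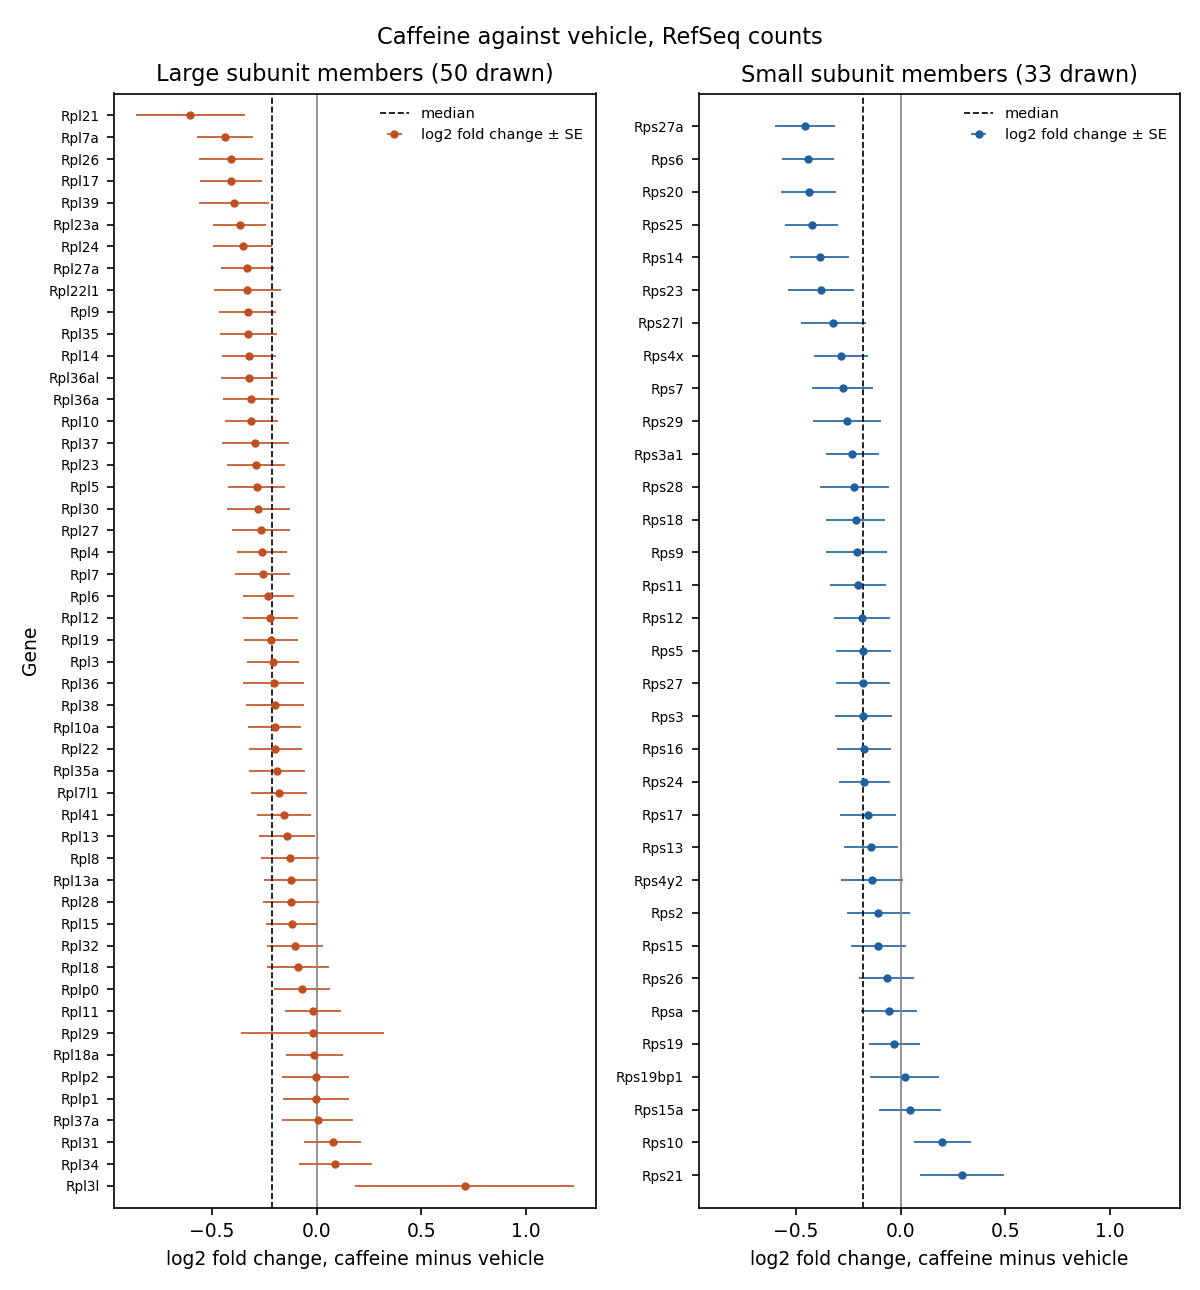
Log2 fold change of caffeine minus vehicle from edgeR for the large and small subunit genes tested, each with its standard error (SE), ordered by size, with a dashed line at the median over all 50 and 34 of them (1 small subunit gene is not drawn). Most points lie left of 0, and the medians are -0.21 and -0.18.

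The gene with the smallest p was Rps6, the small subunit protein that is phosphorylated by the S6 kinases. Its level was 946 and 813 CPM in the vehicle pools against 648, 676 and 616 CPM in the caffeine pools. The groups did not overlap, with means of 880 ± 94.1 CPM (SD, n = 2) and 647 ± 29.9 CPM (SD, n = 3). The log2 fold change was -0.44 (SE 0.124), with an unadjusted p of 0.00367 and an edgeR adjusted p of 0.656. Without vehicle replicate 1 it was -0.33, and over the 5 fits that each leave out 1 library it ran from -0.58 to -0.33.

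Among the small subunit genes Rps20 followed, with 444 and 358 CPM under vehicle against 298, 313 and 276 CPM under caffeine. Its log2 fold change was -0.44 (SE 0.132), with an edgeR adjusted p of 0.725. Rps25 had 317 and 271 CPM under vehicle against 219, 236 and 202 CPM under caffeine, a log2 fold change of -0.43. In both genes the lower vehicle library was still above the highest caffeine library.

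Rps27a encodes a fusion of ubiquitin and a small subunit protein. It had 433 and 341 CPM under vehicle against 295, 305 and 245 CPM under caffeine, with a log2 fold change of -0.46 (SE 0.144), the most negative among the 81 genes above 10 CPM. Rps14, also among the 6 small subunit genes with the smallest p, had a log2 fold change of -0.39. With 1 library left out the value for Rps14 ran from -0.615 to -0.154, and summed with its Ensembl copies it was -0.18. Without vehicle replicate 1 the value for Rps20 was -0.28 and that for Rps27a -0.28.

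Of the large subunit genes Rpl7a had the smallest p, with 66.8 and 61.5 CPM under vehicle against 49.0, 44.1 and 49.0 CPM under caffeine. The log2 fold change of Rpl7a was -0.44 (SE 0.134), with an edgeR adjusted p of 0.725. Its 2 vehicle libraries lay closer together than the median gap given above, and the value without vehicle replicate 1 was -0.38. The Rpl7a row was low, at 62.6 CPM per kb against a median of 402 for the standard genes. It had 23 copies on Ensembl, and its sum with them stayed low, at 1970 counts in vehicle replicate 1 against 1621 on RefSeq. Rpl23a, which lies at the exit of the peptide tunnel, had 423 and 360 CPM under vehicle against 323, 299 and 289 CPM under caffeine, a log2 fold change of -0.37. Rpl17, Rpl26, Rpl27a and Rpl14 had values from -0.41 to -0.32, each with both vehicle libraries above all caffeine libraries. Summed with their Ensembl copies, Rpl26, Rpl27a and Rpl14 had -0.37, -0.15 and -0.32, but Rpl17 had 0.24, the other sign.

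The stalk of the large subunit, which recruits elongation factors, is formed by Rplp0, Rplp1 and Rplp2. Rplp0 had 1974 and 1557 CPM under vehicle against 1646, 1637 and 1765 CPM under caffeine. Rplp1 had 824 and 591 CPM under vehicle against 642, 686 and 789 CPM under caffeine. Rplp2 had 166 and 117 CPM under vehicle against 149, 148 and 126 CPM under caffeine. In all 3 genes the caffeine libraries lay between the 2 vehicle libraries, and the log2 fold changes were -0.07, -0.003 and -0.005 with SEs of 0.135, 0.157 and 0.159. Summed with its copies, Rplp2 had -0.26 on RefSeq and -0.12 on Ensembl.

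Rpsa, a small subunit protein also known as the laminin receptor precursor, had 1322 and 1197 CPM under vehicle against 1101, 1171 and 1363 CPM under caffeine, so that caffeine replicate 3 was the highest library. Its log2 fold change was -0.06 (SE 0.134). Rpl5 and Rpl11, which with 5S RNA can bind and block Mdm2, had log2 fold changes of -0.29 (SE 0.136) and -0.02 (SE 0.133). Rpl3, at the peptidyl transferase centre, had -0.21, Rps4x on the X chromosome -0.29, and Rpl38, known for its role in translating Hox mRNAs in the embryo, -0.20. Rps19, the gene most often mutated in Diamond-Blackfan anaemia, had -0.03 (SE 0.122), and with its copies -0.15 on RefSeq and -0.19 on Ensembl.

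The 3 highest log2 fold changes belonged to Rpl3l, Rps21 and Rps10. Rpl3l had 0.288 and 0.273 CPM under vehicle against 0.332, 0.516 and 0.545 CPM under caffeine, a log2 fold change of 0.71 (SE 0.522) on very few counts. Rps21 had 32.1 and 18.8 CPM under vehicle against 31.6, 32.0 and 30.1 CPM under caffeine. Vehicle replicate 2 was low and the other 4 libraries were alike, and the log2 fold change of 0.30 (SE 0.201) was -0.07 without that library.

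Rps10 had 319 and 256 CPM under vehicle against 320, 310 and 360 CPM under caffeine, a log2 fold change of 0.20 (SE 0.136), and with its Ensembl copies 0.004. Vehicle replicate 2 was the lowest library and caffeine replicate 3 the highest, and without vehicle replicate 2 the log2 fold change was 0.03. Among the other paralogs Rpl22l1 had a log2 fold change of -0.33, Rps27l and Rpl36al -0.32 each, Rpl7l1 -0.18 and Rps4y2 -0.14, and none passed the test. Rps19bp1, the binding protein, had 0.02.

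The gene table on Ensembl release 71 counts the same reads against an annotation that lists many more ribosomal protein pseudogenes. All 85 genes had a row there, 79 had enough counts to be tested, and 530 rows were copies of the 84 genes other than Rps19bp1 by sequence or by name. In the RefSeq table there were 17 such copies. A gene and its copies are called a family below, and a copy was a row whose transcript matched a member at 90% identity or more over at least 80% of the copy's length.

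On Ensembl many genes lost nearly all counts to a copy. Rps6 had 66.5 and 61.5 counts in the vehicle pools against 67.8, 77.9 and 84.5 counts in the caffeine pools. Rps6-ps4, identical over its whole length, had 30809 and 23755 counts under vehicle against 21110, 21109 and 18733 counts under caffeine. The RefSeq row of Rps6 held 22971 and 17854 counts under vehicle against 15598, 15727 and 13575 in caffeine. The copy was highest in the vehicle libraries, as the RefSeq row was, and the gene's own Ensembl row was not.

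Rpl3 had at most 7.43 Ensembl counts in any library while Rpl3-ps1 had 29700 to 45126. Rps27a had 186 to 298 counts where Gm8430 had 5341 to 11222, and Rpl23a had 11.04 to 28.45 where Gm10132 had 9242 to 16046. Of 84 genes, 30 held under 10% and 11 under 1% of their family's Ensembl counts, while 13 held over 90%. The median share was 26.6%.

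**Figure D3:**
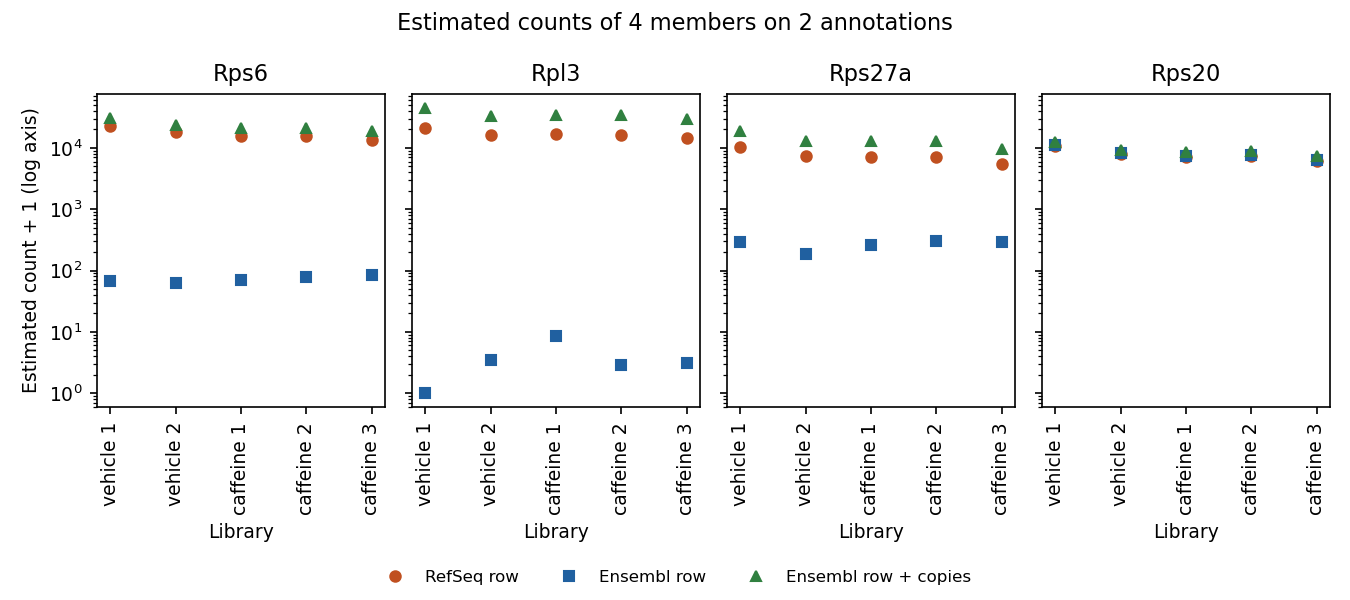
Estimated counts plus 1, on a log axis, for 4 genes in the 5 libraries, for the RefSeq row, the gene's own Ensembl row, and the Ensembl row summed with its copies. Rps6, Rpl3 and Rps27a nearly vanish from their own Ensembl rows and return in the family sum, and Rps20 keeps near-equal counts on both annotations.

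As on RefSeq, the gene rows on Ensembl gave no call in the edgeR test. Of 79 genes 0 were called, where 0.013% of 15440 genes were (Gm13341 and Gm14287, named after their values were seen), and limma-voom called 0. DESeq2 called 2, Rpl35a and Rps25. An unadjusted p under 0.05 was reached by 16 genes that were lower in caffeine, against 2.66% of all genes, and by 2 that were higher, against 3.54%. The log2 fold change was below 0 for 57 of 79 (all genes 46.3%), the median was -0.17, and both vehicle libraries were above all caffeine libraries for 24 (all genes 10%). Without vehicle replicate 1 the median was -0.03 and 42 of 79 (53.2%) were below 0, where 48.3% of all genes were.

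The log2 fold change had the same sign on both annotations for 57 of 79 genes, and the median size of the difference was 0.10. For the 12 tested genes with over 90% of their family's counts the sign was the same in all 12, with a median difference of 0.006. For the 25 with under 10% it was the same in 13, with a median difference of 0.30.

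The 6 genes that differed most were Rpl26, Rpl35a, Rpl10a, Rpl12, Rps16 and Rps2. The Ensembl row of Rpl26 had 29.4 and 26.4 counts under vehicle against 1777, 31.6 and 564 counts under caffeine, a log2 fold change of 4.82 (SE 2.20) against -0.41 on RefSeq. Its copy Gm15772 had 10216 counts under caffeine replicate 1, where the RefSeq row for that copy had 7235. Caffeine replicates 1 and 3 alone were high, and the family sum had a log2 fold change of -0.37.

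Rpl35a moved the other way, with 547 and 187 counts under vehicle against 69.2, 65.8 and 83.1 counts under caffeine, a log2 fold change of -2.29 (SE 0.385) against -0.19 on RefSeq. Its edgeR adjusted p of 0.200 was the smallest among the Ensembl rows of the ribosomal protein genes. The Rpl35a family sum gave -0.19. Rpl10a and Rpl12 had Ensembl log2 fold changes of 0.95 and 0.79, RefSeq values of -0.20 and -0.22, and family sums of -0.16 and -0.12. The row of Rpl10a held 2.88% of its family and that of Rpl12 1.53%.

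Summed with its copies, a gene differed less between the annotations. Of the 82 families tested on Ensembl, 75 had a log2 fold change below 0 (46.6% of all rows in that fit), with a median of -0.20. Both vehicle libraries were above all caffeine libraries for 39 families (all rows 9.93%). None was called by edgeR, where 0.0196% of all rows were, and the smallest adjusted p was 0.477. An unadjusted p under 0.05 was reached by 23 families lower in caffeine, against 2.53% of all rows, and 1 higher, against 3.51%. The higher one was Rps7, named after its value was seen, at 0.61 against -0.28 on RefSeq, the largest difference of any family. Its Ensembl sum was incomplete, with 2640 counts in vehicle replicate 1 where the RefSeq row of Rps7 had 7725. The sign was that of the RefSeq row for 72 of 82 families, and the median size of the difference was 0.04.

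**Figure D4:**
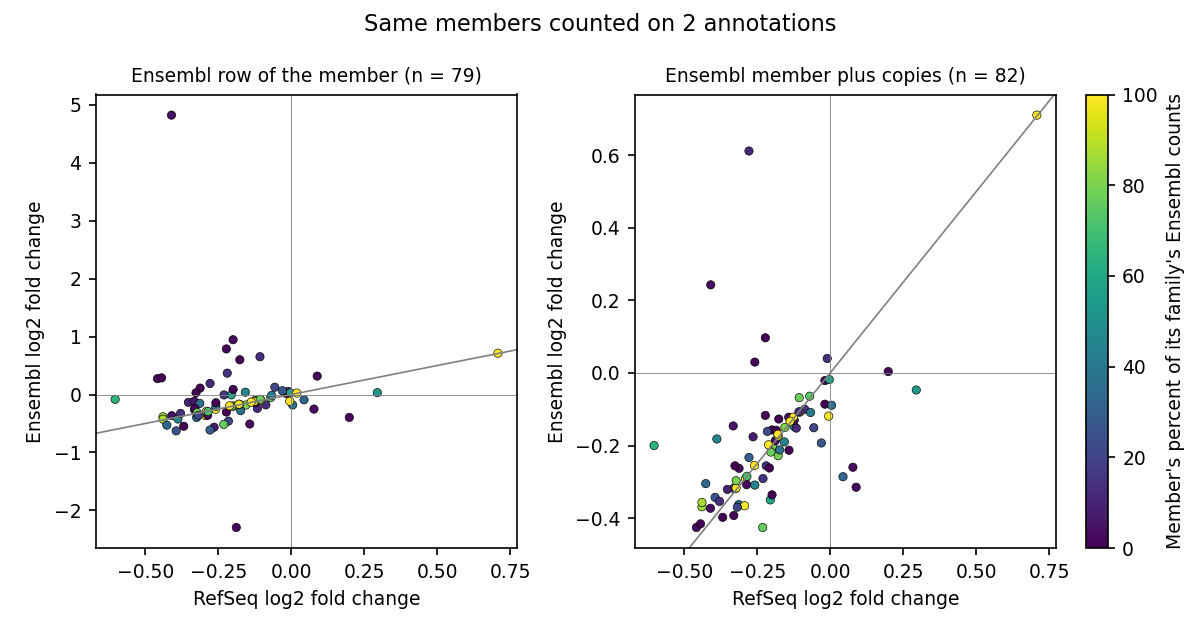
Log2 fold change on RefSeq (x axis) against the gene's own Ensembl row (left) and the Ensembl family sum (right), coloured by the percent of the family's Ensembl counts that the gene's own row holds, with a grey line where both are equal. Rps19bp1, which has no family, is drawn at 100% on the left. Rpl26 lies at 4.82 and Rpl35a at -2.29 on the left, and on the right 63 of 82 families lie within 0.1 of the RefSeq value.

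Family sums on RefSeq, where few copies are listed, gave 77 of 83 log2 fold changes below 0 (all rows 47.0%) and a median of -0.21. Both vehicle libraries were above all caffeine libraries for 39 of them (all rows 9.23%). Of the 83 edgeR called 0, where 0.00724% of all rows were called, and 24 were lower at an unadjusted p under 0.05, against 2.03%, and 0 higher, against 3.13%.

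The family sums took 5.21% of Ensembl counts in vehicle replicate 1, 4.23% in vehicle replicate 2, and 4.34%, 4.31% and 4.18% in the caffeine replicates. Counting the copies raised the share in every library above the RefSeq share, and vehicle replicate 1 again stood apart from the other 4. The family of Rps6 had a log2 fold change of -0.42 (SE 0.124), that of Rps27a -0.43 and that of Rpl23a -0.40. Some families stayed incomplete, since 4 had an Ensembl sum under the RefSeq row in every library, and 87.4% of the Ensembl rows could be found in the reference by name.

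The genes that work with the ribosomal proteins were read from lists. None of their genes passed the edgeR test in either direction. Fau and Gnb2l1, ribosomal proteins whose symbols fall outside the naming rule, had log2 fold changes of -0.26 and -0.06. The median of the 3 genes in their list was -0.13 on RefSeq. On Ensembl it was 0.08, with values from -0.05 to 0.31. The 16 elongation factors and other mRNAs with a TOP tract had a median of -0.20, with 14 below 0, and the nucleolar protein Npm1 and the elongation factor subunit Eef1b2 had -0.44 each. The 76 mitochondrial ribosomal protein genes, which serve a separate ribosome, had a median of -0.11, with 62 below 0.

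Among 33 ribosome biogenesis genes the median was -0.10, with 26 below 0. Caffeine replicate 1 was the lowest library for 30 of the 33, where it was lowest for 3149 of all 13829 genes tested. Their median deviation was -0.294 in caffeine replicate 1 and 0.049 and 0.072 in caffeine replicates 2 and 3. In vehicle replicates 1 and 2 it was 0.091 and 0.015. Nucleolin (Ncl) had 1025 and 1004 CPM under vehicle against 627, 793 and 714 CPM under caffeine, with a log2 fold change of -0.51 (SE 0.131, edgeR adjusted p 0.517). Its groups did not overlap, and its 2 vehicle libraries were close to each other. The 20 genes of RNA polymerase I and its factors had a median of -0.10, and the 10 genes for import and chaperones of ribosomal proteins one of -0.08. Of these, 11 and 8 were lowest in caffeine replicate 1. The 17 genes that signal to ribosome synthesis had a median of 0.07, the 8 tested genes of the nucleolar stress and p53 axis 0.11, and the 10 of ribosome quality control and splitting -0.03.

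The small nucleolar RNA host genes had the opposite sign. They carry in their introns the guide RNAs that modify ribosomal RNA, and their spliced transcripts, such as Gas5, also begin with a TOP tract. Of 9 tested, 0 had a log2 fold change below 0, the median was 0.56, and all 3 caffeine libraries were above both vehicle libraries for 7, where 11.2% of all genes were so ordered. On Ensembl only 3 of these genes were tested, with a median of 0.30. Snhg5 had 4.41 and 5.69 CPM under vehicle against 10.9, 10.1 and 11.1 CPM under caffeine, a log2 fold change of 1.08 (SE 0.205, edgeR adjusted p 0.263). Gas5 had 20.2 and 17.8 CPM under vehicle against 26.5, 31.4 and 28.6 CPM under caffeine, a log2 fold change of 0.60 (adjusted p 0.517). Both vehicle libraries were low in these 2 genes, and no library stood apart as vehicle replicate 1 did in the ribosomal protein genes.

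**Figure D5:**
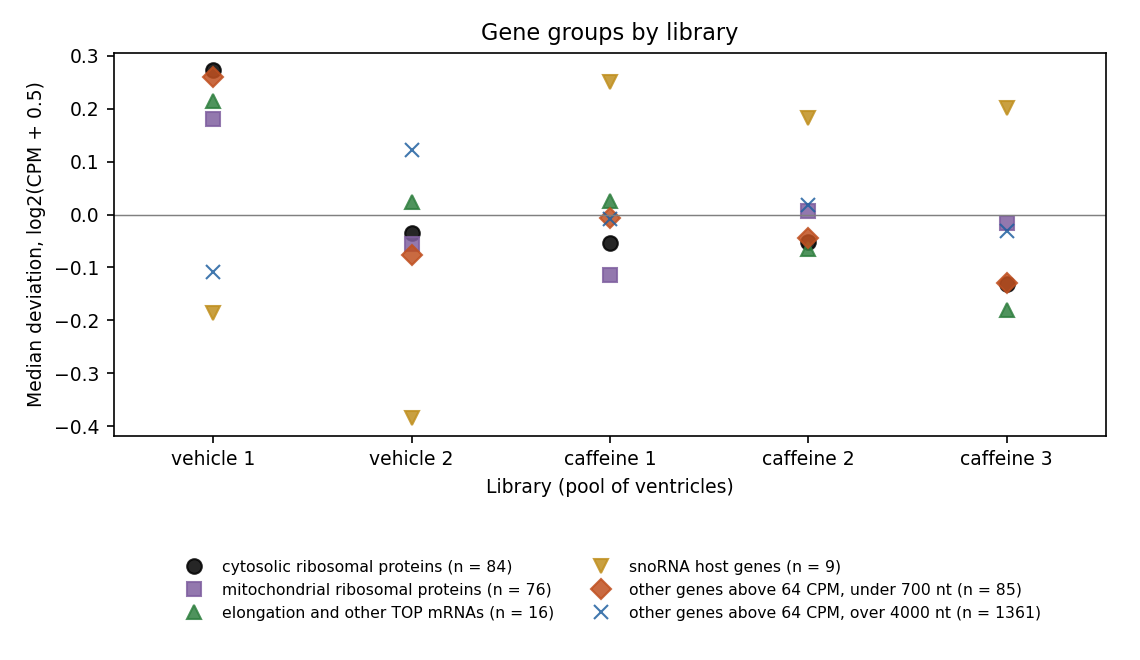
Median deviation from each gene's own mean over the 5 libraries, on the log2(CPM + 0.5) scale, for 6 gene groups on RefSeq. Cytosolic ribosomal protein genes and other short genes above 64 CPM share the high value in vehicle replicate 1 (0.27 and 0.26), long genes are low there (-0.11), and small nucleolar RNA (snoRNA) host genes are low in both vehicle libraries.

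Transcript length moved with the library that stood apart. The median annotated length of the 85 genes was 703 bases, and 67 were under 1000 bases. Among other genes above 64 CPM, the 85 with transcripts under 700 bases had a median deviation of 0.26 in vehicle replicate 1 and -0.08 in vehicle replicate 2, and 72 of them were highest in vehicle replicate 1. Their median log2 fold change was -0.15, with 69 below 0. The 1361 with transcripts over 4000 bases had deviations of -0.11 and 0.12 in the vehicle libraries, a median log2 fold change of -0.01, and 55 were highest in vehicle replicate 1. The part of transcript length in the values of the ribosomal protein genes was not tested.

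The ribosomal RNA precursor Rn45s took 0.864% and 0.52% of RefSeq counts in the vehicle pools against 0.172%, 0.276% and 0.271% in the caffeine pools, and its part in the result was not tested. The tissue label was checked with markers. The 8 cardiomyocyte markers summed to 35420 to 37880 CPM under vehicle against 31130 to 32120 CPM under caffeine, with 7 of 8 log2 fold changes below 0. Endothelial and endocardial markers summed to 1475 to 1586 and 1328 to 1534 CPM, epicardial ones to 357 to 407 and 363 to 509 CPM, and erythroid ones to 8168 to 14180 and 8644 to 13620 CPM. All these sums take only the markers with enough counts to be tested. Endoderm and liver markers (4 tested) summed to 7.42 and 114 CPM under vehicle against 6.99 to 37.1 CPM under caffeine. Macrophage markers (4 tested) summed to at most 10.7 CPM. Of the neural and neural crest markers only Nes and Tubb3 were tested, with sums of 119 to 121 and 72.3 to 114 CPM. Nes alone had 108 and 110 CPM under vehicle against 68.3 to 93.3 CPM under caffeine. Sox10 and Sox2, too low to be tested, had at most 0.215 and 0.387 CPM. The part of the markers in the result was not tested.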

How the data were processed

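Per the labels' protocols, RNA of pooled E10.5 ventricles was made into TruSeq libraries and run on a HiSeq 2000. The authors deposited estimated counts per gene and transcript on RefSeq and on Ensembl release 71, per the file headers. TopHat, Partek, mm10 and GRCm38 are named in the submitters' processing notes. How reads with several matches were shared, and whether strand was used, is not given in the sources used here. Totals were 21713381 to 25048134 RefSeq and 23091312 to 26730083 Ensembl counts per library.

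Estimated counts were rounded. filterByExpr removed low-count genes, libraries were scaled by TMM, and caffeine was compared with vehicle over all genes by edgeR 4.0.16 in R 4.3.3 (quasi-likelihood test, robust, two-sided, Benjamini-Hochberg, threshold 0.05). CPM values use TMM-scaled totals, and SE is the log2 fold change divided by the root of the F statistic, without sign. Copies were found with BLAST 2.17.0 against GENCODE vM21 transcripts. Lengths are exon lengths of the GENCODE transcript nearest the deposited model, within its ends. The fit was tested on simulated data. Alternatives used RLE, upper-quartile and total-count scaling, TMM without the ribosomal protein genes, 2 other filters, DESeq2 1.42.0, limma-voom (limma 3.58.1), no robust estimation, leaving out each library, a block for replicate number, a threshold of 0.1 and the Ensembl rows. Family sums were added after seeing the data.

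Genes named were the 6 large and 6 small subunit genes with the smallest p, the 6 that differed most between annotations, the 3 with the highest log2 fold change, the 3 highest and 3 lowest in level per length, fixed genes of known role, and up to 3 genes per list by p. Not all are described, and some that the rule takes are not reported here. Genes and lists were chosen with earlier results of these data known.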

Additional observations from a re-analysis of the deposited data

How the results depend on the processing

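No ribosomal protein gene was called on RefSeq under any of the 17 alternatives tried there, a threshold of 0.1 and the family sums among them. The count of all RefSeq genes called was 1, and became 6 without the low-count filter, 18 with DESeq2 and 52 with the replicate number as a block, and it ran from 0 to 18 when 1 library was left out. With 1 library left out the median log2 fold change of the ribosomal protein genes ran from -0.37 to -0.057 and the number below 0 from 50 to 81, the ends being vehicle replicates 2 and 1. On Ensembl the 2 genes called became 1 with library totals and with a filter of 5 CPM in 2 libraries, 6 at an adjusted p under 0.1, 84 with DESeq2, 86 without the filter, and 0 to 41 with 1 library left out. Ribosomal protein rows called on Ensembl were 2 with DESeq2 (Rpl35a and Rps25) and 0 to 1 with 1 library left out, Rpl35a without vehicle replicate 2.

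The labels give the replicate numbers no shared animal, batch or day, and the correlations of deviations between same-numbered libraries, -0.025 and 0.162, do not settle whether they pair, since with 2 vehicle libraries the deviations mirror each other. With the block, 176 Ensembl genes and 3 ribosomal protein rows (Rpl27, Rpl35a and Rps2) were called. On RefSeq the blocked median was -0.19, with Rplp2 at 0.091, Rpl11 at 0.002 and Rps19bp1 at -0.078. In that edgeR fit 8 ribosomal protein genes had an unadjusted p under 0.05 and were lower, and the share of all genes was not taken.

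Some named genes changed sign, none of them called in the fit that changed it. Library totals gave Rplp1 0.058, Rpl29 0.042, Rpsa 0.005, Rplp2 0.057, Rpl11 0.044 and Rps19 0.031. The filter of 5 CPM gave Rplp1 0.004 and Rplp2 0.002, and limma-voom gave both 0.011. RefSeq family sums gave Rpl29 0.03. With 1 library left out the ranges were -0.33 to 0.12 for Rps2, -0.066 to 0.74 for Rps21, -0.25 to 0.26 for Rplp1, -0.26 to 0.11 for Rplp0, -0.22 to 0.17 for Rpl29, -0.15 to 0.016 for Rpsa, -0.26 to 0.27 for Rplp2, -0.21 to 0.17 for Rpl11, -0.15 to 0.064 for Rps19 and -0.093 to 0.11 for Rps19bp1. The Ensembl row gave Rpl26 4.82, Rps6 0.29, Rps27a 0.27, Rpl10a 0.95, Rpl12 0.79, Rps16 0.60, Rps2 0.65, Rps10 -0.40, Rplp1 0.029, Rpsa 0.13, Rpl11 0.019, Rpl38 0.089 and Rps19 0.065, and the Ensembl family sum Rpl17 0.24 and Rps21 -0.047. The causes were not tested. Scaling by library totals moved the median of all genes to 0.07, with 33.6% below 0, and that of the ribosomal protein genes to -0.14, with 69 below 0.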

Other observations

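The RefSeq transcript table splits the counts of 11 of these genes among several transcripts, and these estimated shares were not tested. In Rps24, Rpl19 and Rpl35a every share moved by under 1 percentage point over the 5 libraries. A share that did not overlap between the groups was found in 5 of the 11 genes (Rpl22, Rpl35a, Rpl38, Rps27 and Rps27a, named after their values were seen), where 38.9% of 3331 tested genes with several transcripts had one, so the count is near that of other genes. The widest of these were in Rpl22, where 1 of 5 transcripts held 27.0% and 19.2% under vehicle and 16.83%, 10.96% and 11.32% under caffeine, and in Rps27a, where the less abundant of 2 transcripts held 9.34% and 7.81% under vehicle and 10.5%, 12.3% and 16.8% under caffeine.

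The few pseudogenes listed on RefSeq can hold more counts than the gene. Gm15772, a copy of Rpl26, had 9784 and 7043 counts in vehicle and 7235, 6349 and 5381 counts in caffeine, where Rpl26 itself had 1174 and 845 counts in vehicle and 868, 762 and 645 in caffeine. Both rows were highest in vehicle replicate 1 and lowest in caffeine replicate 3.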
